A study of Saccharomyces cerevisiae with 2 samples.

Results

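The contacts that the mitochondrial genome of Saccharomyces cerevisiae makes with itself were described from Genome Conformation Capture (GCC). In this method cross-linked DNA is cut with MspI, religated in dilute solution and sequenced without enrichment. A junction between 2 MspI fragments that recurs above the level of random ligation is taken as a sign that they lay close together. The study's methods state that random ligations also occur, so a single junction need not record closeness. Among uniquely mapped sequences, the pairs kept were those with both fragments on the mitochondrial reference sequence, each counted once. They were split into self pairs, adjacent pairs of fragments with consecutive numbers, and distant pairs. Strain BY4741 was grown at 30 °C to an OD600 of 0.6 in synthetic complete medium with glycerol lactate or with galactose, and the cells were cross-linked with 2% formaldehyde for 10 min. Each medium has 1 library that combines 2 biological replicates, so replicate spread cannot be shown, and tests between the libraries compare 2 libraries and not 2 media. Of 233 numbered mitochondrial MspI fragments, 137 had at least 1 uniquely mapped count with another mitochondrial fragment or with themselves, 135 of them in glycerol lactate and 134 in galactose, out of 13400 and 13381 fragments listed in the whole libraries. These fragments formed 6435 of 342659 pairs in glycerol lactate and 4863 of 713131 pairs in galactose.

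Yeast mitochondrial DNA (mtDNA) is present in many copies per cell, packed by protein into nucleoids. It encodes subunits of cytochrome c oxidase, of the bc1 complex and of the ATP synthase, the mitochondrial ribosomal RNAs, 1 ribosomal protein, tRNAs and the RNA of the mitochondrial RNase P. Its map closes to a circle, while much of the DNA in cells is thought to lie in linear head-to-tail repeats of that map. The genes stand apart in long AT-rich spacers that carry many short GC-rich clusters, and MspI recognises a site of G and C only. Growth on glycerol lactate requires respiration, whereas galactose can also be fermented.

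The reference circle of 85779 bp was cut very unevenly. The 137 fragments covered 98.8% of it and ranged from 12 to 6972 bp with a median of 360 bp, and 114 of them were at least 100 bp long. The longest, at 17290-24261 (1-based positions on the mitochondrial reference of the files), lies within COX1, which encodes subunit I of cytochrome c oxidase. Another 34 fragments of at most 35 bp were listed only when sequences that map to several places were included, and 62 fragments were in no table. The missing fragments filled 46 stretches, of which 29 were 7 or 8 bp long and 14 were 20 or 21 bp long, so that sites often came in tight groups. By RefSeq gene positions, which equalled those in the files for the 8 of 8 coding sequences listed there, 24 of the 137 fragments overlapped a protein or rRNA gene, 17 held only tRNA genes or RPM1, the RNA of RNase P, and 96 held no gene.

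Glycerol lactate had 259656 counts within mtDNA among 3221104 uniquely mapped counts, a share of 8.06% (95% Wilson interval 8.03% to 8.09%). Galactose had 143256 among 2338837, a share of 6.13% (6.09% to 6.16%). The first share was 1.32 times the second (1.31 to 1.32), and Fisher's exact test between the 2 libraries gave a p below the smallest value the software returns. These and all later intervals cover counting error only. When self and adjacent pairs were left out of both the mitochondrial and the total counts, the difference between the libraries grew from 1.94 to 11.2 percentage points. Within the nuclear chromosomes, distant pairs made up 8.70% of intrachromosomal counts in glycerol lactate and 27.3% in galactose. The growth of that difference was therefore measured against nuclear totals that themselves differed between the libraries. Of the mitochondrial counts left, 74.9% in glycerol lactate and 64.6% in galactose joined fragments at most 40 bp apart, described below. The difference without these near neighbours was not calculated.

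Within mtDNA, adjacent pairs held most counts in both libraries. In glycerol lactate they held 151967 counts (58.5%, 58.3% to 58.7%), distant pairs 107537 (41.4%, 41.2% to 41.6%) and self pairs 152 (0.0585%, 0.0499% to 0.0686%). In galactose they held 86087 counts (60.1%, 59.8% to 60.3%), distant pairs 55451 (38.7%, 38.5% to 39.0%) and self pairs 1718 (1.20%, 1.14% to 1.26%). The self share was 20.5 times higher in galactose (17.4 to 24.2). The nuclear chromosomes showed a similar gap, with self shares of 0.0631% and 1.25% of intrachromosomal counts, so the gap was shared by both genomes. Self counts were highest in galactose at 40385-41560 in COB (161), the cytochrome b gene, at 26194-27400 in COX1 (136) and at 44004-44511 (132), and the highest self count in glycerol lactate was 14.

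Most distant counts spanned only a few bases of sequence without uniquely mapped fragments. Fragment numbers that differed by 2 to 4 accounted for 79.6% of distant counts in glycerol lactate and 73.3% in galactose. Counts per possible pair then dropped, from a mean of 104 at a difference of 4 to 13.3 at a difference of 5 in glycerol lactate, and from 56.3 to 13.4 in galactose. There were 68 distant pairs whose facing ends lay at most 40 bp apart on the reference. They held 80500 counts (74.9%, 74.6% to 75.1% of distant counts) in glycerol lactate and 35794 (64.6%, 64.2% to 64.9%) in galactose. Their median count was 1264 and 519.5, against 1635 and 827 for the 83 possible adjacent pairs. The range of these counts lay within that of adjacent pairs, for which the study's methods state that an uncut site cannot be told from a religated one. Pairs over 40 bp apart were therefore followed separately, a choice made after the counts were seen.

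The 34 pairs separated by 20 or 21 bp had a median of 1313 counts (795 to 2056) in the glycerol lactate library and of 546 (264 to 909) in the galactose library, and none of them was at 0. The 3 highest distant pairs were the same in both libraries. Fragment 72003-72787, which carries a methionine tRNA gene, had 3139 and 1860 counts with 72823-73015, across a gap of 35 bp. The pair of 84521-84757 and 84793-85589, the second of which holds another methionine tRNA gene and part of RPM1, had 2464 and 1349. The pair of 64550-65062, with the histidine tRNA gene, and 65097-65697 had 2370 and 1319. The other pairs among the 5 highest of a library were 17290-24261 with 24274-24872, both in COX1, at 2070 and 1052 counts, 67004-67961 with 67982-68677, both of which hold tRNA genes, at 2056 and 909, and 57065-57826 with 57862-60544 of the 21S rRNA gene at 1960 and 1068. All of these pairs lay at most 40 bp apart.

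Defining the distant class by gap turned the comparison of the libraries around. By fragment number, the distant share was 2.71 percentage points higher in glycerol lactate (Fisher's exact test, p = 3.47e-63). Counts over 40 bp apart made up 10.4% (10.3% to 10.5%) of mitochondrial counts in glycerol lactate and 13.7% (13.5% to 13.8%) in galactose, which was 1.32 times higher in galactose (1.29 to 1.34, Fisher's exact test, p = 1.70e-208).

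**Figure D1:**
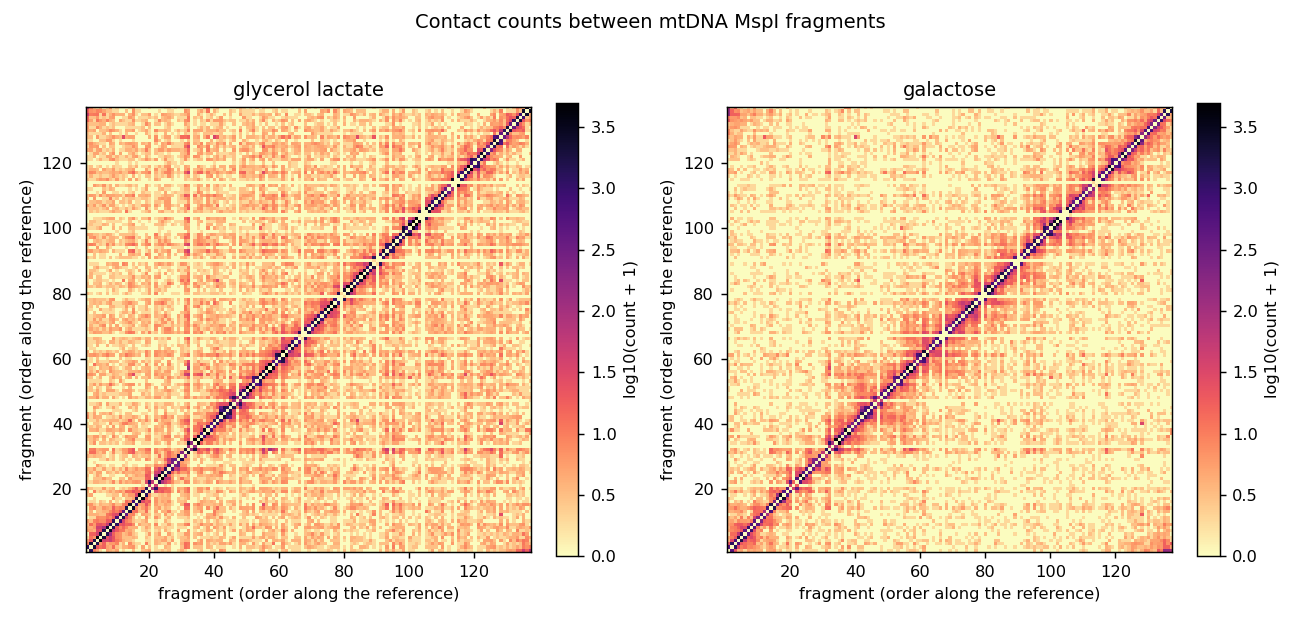
Counts of each pair of the 137 fragments in order along the reference, as log10(count + 1), with 1 panel per library. Both maps are dark along the diagonal and at the 2 corners where the ends of the reference meet, and the area away from the diagonal is filled more evenly in glycerol lactate than in galactose.

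Many distant pairs had several counts. At least 3 counts, the noise cut-off that the study's methods state for Mito-nDNA pairs, were reached by 3119 of 9233 possible distant pairs in glycerol lactate (33.8%) and by 1750 in galactose (19%). For pairs over 40 bp apart the shares were 33.3% and 18.4%, and for pairs 20 kb or more apart on the circle they were 28.1% and 6.05%. Pairs of a mitochondrial and a nuclear fragment outside the rDNA reached 3 counts in 0.0666% of possible pairs in glycerol lactate and 0.00419% in galactose. Pairs within a nuclear chromosome, over 40 bp and under 45 kb apart, did so in 0.9% and 4.3%. The mitochondrial shares therefore stood above both, and glycerol lactate had the larger share within mtDNA but the smaller one within nuclear chromosomes. Mitochondrial fragments come from a multicopy genome and the counts were not corrected for copy number. The cut-off was derived for Mito-nDNA pairs, which averaged 0.0462 counts per possible pair in glycerol lactate and 0.0145 in galactose. Mitochondrial pairs 20 kb or more apart averaged 1.93 and 0.692. Reaching 3 counts therefore does not place a mitochondrial pair above noise, and the shares follow these mean levels.

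Counts fell with circular distance in both libraries, but to different levels. In glycerol lactate the mean count per possible pair was 27.7 under 1 kb (27.0 to 28.4), 7.45 from 1 to 2 kb, 3.78 from 2 to 5 kb and 2.17 from 5 to 10 kb. It then hardly moved, at 2.08 from 10 to 20 kb, 1.95 from 20 to 30 kb and 1.91 from 30 kb to the far side of the circle (1.86 to 1.96). In galactose it was 26.0 under 1 kb (25.4 to 26.7), 9.90, 4.75 and 2.14 in the same first bins. It went on falling to 1.03, 0.75 and 0.65 (0.62 to 0.68). The mean of glycerol lactate was 1.06 times that of galactose under 1 kb (1.03 to 1.10) and 1.01 times from 5 to 10 kb (0.96 to 1.07), while at 20 kb and more it was 2.78 times as high (2.67 to 2.89).

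The mean at 2 to 5 kb was 1.96 times that at 20 kb and more in glycerol lactate (1.88 to 2.05) and 6.86 times in galactose (6.53 to 7.20). The second ratio was 3.49 times the first (3.27 to 3.73). Pairs share fragments and are not replicates, so no p is given. Beyond 20 kb the profile was flat in glycerol lactate, where 20 to 30 kb stood at 1.02 times 30 kb and more (0.98 to 1.06), and still fell in galactose, at 1.15 times (1.08 to 1.23). Dividing by the product of each fragment's counts with the nuclear genome left the near-to-far ratios at 1.93 and 6.78. With sequences that map to several places included, they were 0.888 and 1.04, so the decay was not seen in those tables.

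**Figure D2:**
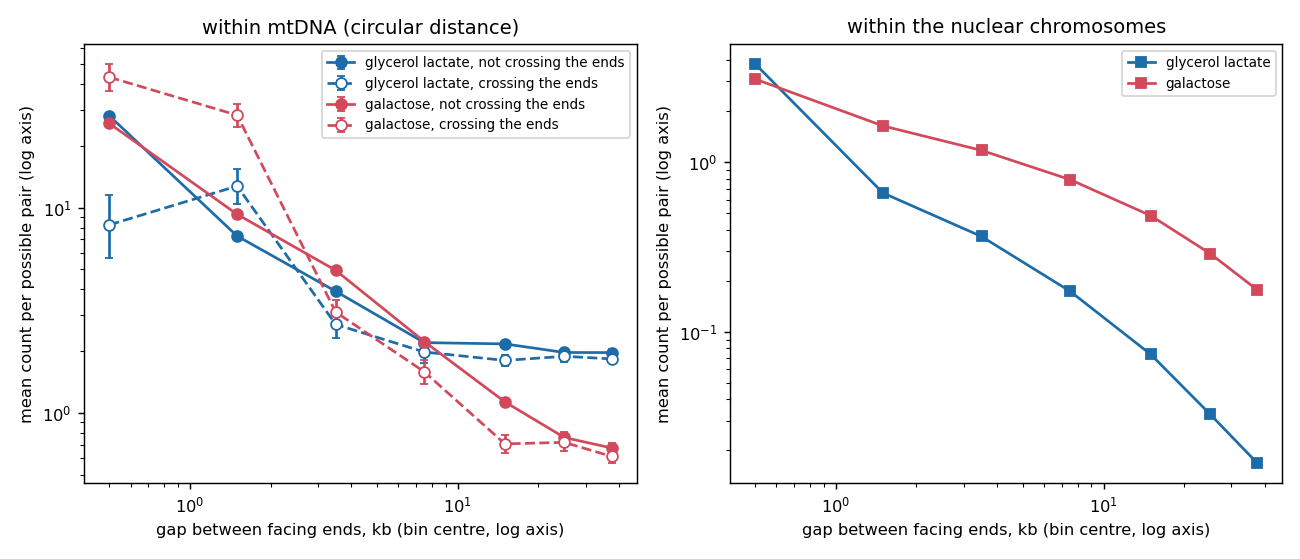
Mean count per possible pair against the gap between facing ends (both log axes) for fragments over 40 bp apart, within mtDNA by circular distance (left, error bars are 95% Poisson intervals) and within the 16 nuclear chromosomes together (right). Within mtDNA glycerol lactate levels off near 2 counts from 5 kb while galactose falls to 0.67 without and 0.61 with crossing of the ends, and within nuclear chromosomes glycerol lactate lies below galactose at all distances from 1 kb.

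The nuclear chromosomes differed between the libraries in the opposite direction. The same ratio of 2 to 5 kb over 20 to 45 kb was 15.7 over all nuclear chromosomes in glycerol lactate (15.3 to 16.1), with single chromosomes between 14.1 (VI) and 18.3 (V). In galactose it was 5.29 (5.23 to 5.34), between 4.98 (VI) and 5.76 (V). The ratio of mtDNA lay below all 16 chromosomes in glycerol lactate, where the nuclear ratio was 8.01 times the mitochondrial one (7.60 to 8.43). It lay above all 16 in galactose, where the nuclear ratio was 0.770 times the mitochondrial one (0.733 to 0.810). Per 1000000 uniquely mapped counts, pairs 20 kb or more apart were 2.02 times as frequent in glycerol lactate as in galactose within mtDNA (1.94 to 2.10) and 0.0759 times as frequent within nuclear chromosomes (0.0741 to 0.0776). Between 2 and 5 kb the same figures were 0.578 (0.548 to 0.610) and 0.226 (0.222 to 0.230).

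The level of the farthest mitochondrial pairs moved with that of Mito-nDNA pairs. Pairs of mitochondrial and nuclear fragments outside the rDNA were 2.32 times as frequent per 1000000 counts in glycerol lactate as in galactose (2.28 to 2.35). Their mean count per possible pair was 0.0462 and 0.0145. The mean of mitochondrial pairs 20 kb or more apart was 41.7 times that in glycerol lactate (40.8 to 42.6) and 47.8 times in galactose (46.1 to 49.5). The first of these ratios was 0.873 times the second (0.837 to 0.910), so the 2 libraries were closer in this ratio than in either level.

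The ends of the reference sequence are a choice of the map, and they give a direct view of continuity. Along the linear reference the mean count at gaps of 70 to 76 kb was 1.47 (1.33 to 1.61, glycerol lactate) and 0.71 (0.61 to 0.81, galactose). It was higher again at the longest gaps of 76 to 86 kb, at 2.89 (2.65 to 3.14) and 4.28 (3.99 to 4.59). These pairs are near each other on the circle. Over 40 bp apart, the 229 possible pairs that cross the ends within 10 kb of circular distance averaged 1.39 times the pairs 20 kb or more apart in glycerol lactate (1.28 to 1.51) and 5.35 times in galactose (4.97 to 5.77). With the pair of the first and last fragment these values were 1.55 and 5.89. Without any pair of the first fragment, at 1-99, they were 1.22 and 3.41. With fragments of at least 100 bp, which leaves out that fragment and all other short ones, the ratios were 1.00 and 2.89, so no excess was left in glycerol lactate.

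**Figure D3:**
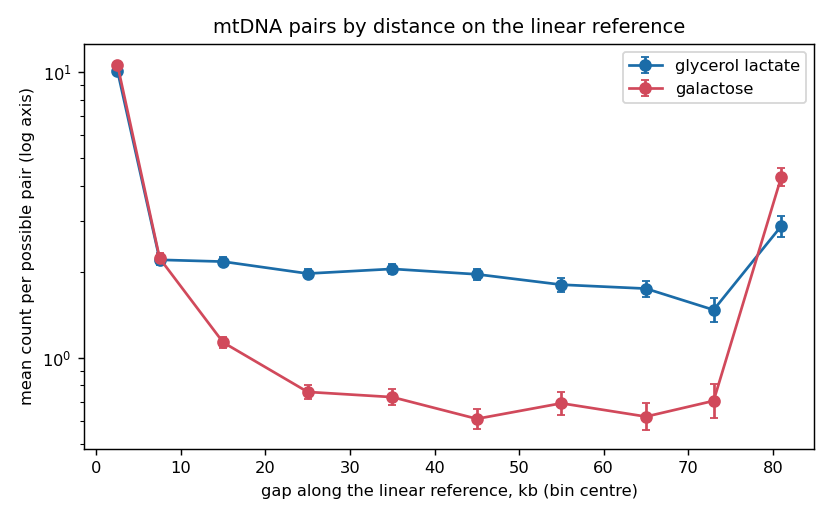
Mean count per possible pair over 40 bp apart (log axis, 95% Poisson intervals) against the gap along the linear reference in kb. In the last bin, where the fragments flank the 2 ends, both libraries turn up, to 2.89 in glycerol lactate and 4.28 in galactose.

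Pairs that cross the ends were also set against pairs elsewhere at the same distance. From 2 to 10 kb they averaged 0.777 times the pairs that do not cross in glycerol lactate (0.707 to 0.854) and 0.637 times in galactose (0.578 to 0.702). Divided by the product of the counts that their fragments made with the nuclear genome, the ratios were 1.07 (0.973 to 1.17) and 1.11 (1.01 to 1.22). Under 2 kb, where only 12 pairs cross, they averaged 0.640 times the others in glycerol lactate (0.540 to 0.759) and 1.91 times in galactose (1.72 to 2.11).

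The fragments next to the ends are given singly. The first fragment had 73 counts with the last one, at 85590-85779, in glycerol lactate and 89 in galactose. This lay below the median adjacent pair, and 8 of 83 possible adjacent pairs in glycerol lactate and 10 in galactose were lower. Adjacent fragments 84793-85589 and 85590-85779 beside the ends had 2467 and 1740 counts. The first and last fragment are parts of 1 fragment unless an MspI site lies where the map was opened, which was not checked here. As a self pair their count would be above all 39 self pairs of glycerol lactate and below 5 of the 67 of galactose. The first fragment also had 44 counts in glycerol lactate and 149 in galactose with 84521-84757, and 17 and 136 with 84793-85589. Per 1000000 distant counts these were 6.57 and 15.5 times higher in galactose (4.69 to 9.19 and 9.37 to 25.7). Both pairs cross the ends and were lower in glycerol lactate. If the first and last fragment are 1 fragment, the pair with 84793-85589 is an adjacent pair, which cannot be told from uncut DNA. It was counted above among the crossing pairs over 40 bp apart. In all, the first fragment held 162 of 208 counts across the ends within 2 kb in glycerol lactate, and 402 of 488 in galactose.

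Counts per fragment followed length and detectability. Over the 137 fragments, distant counts had a Spearman rank correlation of 0.48 with length in glycerol lactate and 0.55 in galactose, and of 0.67 and 0.63 with the counts that the same fragments made with nuclear fragments outside the rDNA. For counts 20 kb or more away the correlation with nuclear counts was 0.91 and 0.86. These are descriptions across fragments, which share pairs and a library. Counts over 40 bp away had medians of 374 and 279 per fragment. They had medians of 11.5 and 12.5 for the 12 fragments under 20 bp, and 558.5 and 462 for the 22 of at least 1 kb. Per kb of fragment the medians fell with length, from 1901 and 1128 for fragments of 100 to 300 bp to 339 and 283 for those of at least 1 kb.

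The highest totals over 40 bp away were the same 2 fragments in both libraries. Intergenic fragment 32452-33047 had 1404 and 648 counts, of which 688 and 256 were with 33107-33125, a gap of 59 bp. The COX1 fragment 17290-24261 had 1196 and 608, and ranked first in counts with the nuclear genome, at 3190 and 1395. Next came 81429-82549 in glycerol lactate, at 1149, of which 568 were with 80528-81375 across a gap of 53 bp. In galactose it was 53641-53831, at 587, of which 301 were with 52797-53234 across 406 bp. By total distant counts, 72823-73015 led with 4861 and 2714, of which most came from its neighbour across 35 bp. It was followed by 64550-65062, with the histidine tRNA gene, at 3960 and 2264. Next came the 21S rRNA fragment 57862-60544 at 3723 in glycerol lactate and 72003-72787 at 2247 in galactose. The lowest totals, of 0, belonged to fragments of at most 35 bp, namely 52784-52796, 56848-56863 and 72788-72822 in both libraries, 66839-66851 in glycerol lactate and 46327-46339 in galactose.

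**Figure D4:**
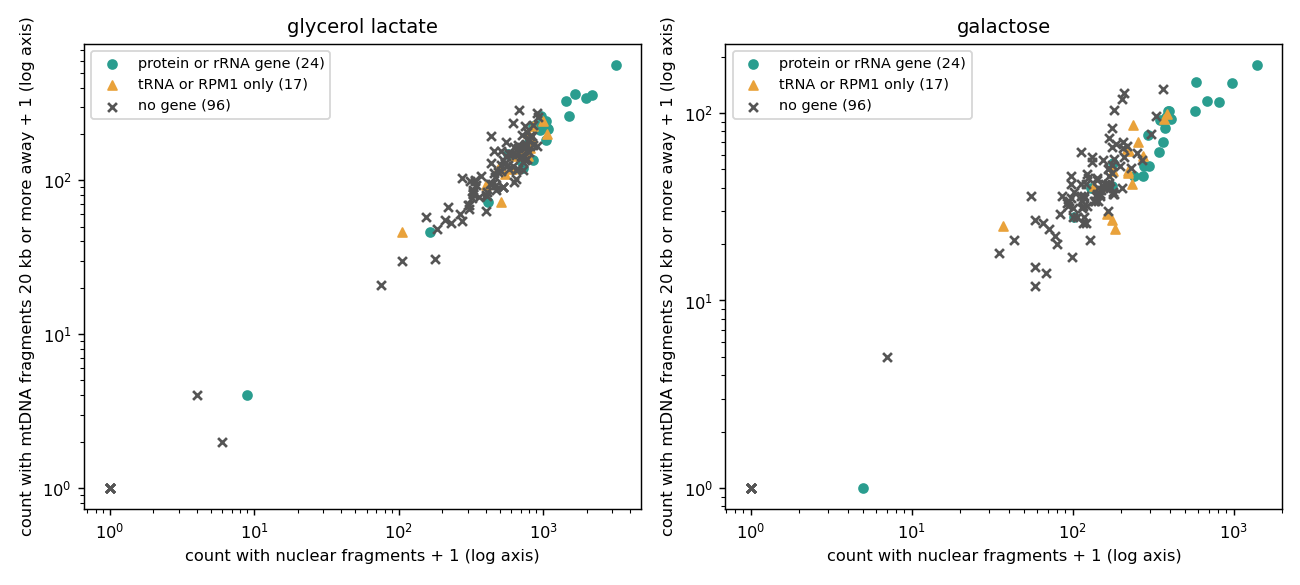
For each of the 137 fragments, the count with mtDNA fragments 20 kb or more away against the count with nuclear fragments, each plus 1 (log axes), by gene class. The 2 counts rise together with rank correlations of 0.91 in glycerol lactate and 0.86 in galactose, and the gene fragments with most nuclear counts lie toward the lower side in galactose.

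Gene fragments covered 45.9% of the length of the 137 fragments but made up 17.5% of their number, and they held 18.9% (18.7% to 19.2%) of distant counts in the glycerol lactate library and 20.0% (19.7% to 20.4%) in the galactose library, each count being split equally between its 2 fragments. The difference of 1.09 percentage points passed Fisher's exact test (p = 1.25e-07). It rested on near neighbours, since over 40 bp apart the shares were 22.2% and 22.2% (Fisher's exact test, p = 0.91), and 20 kb or more apart 27.3% and 28.5% (p = 0.184). Fragments without a gene, 38.1% of the length, held 65.2% and 62.7% of counts over 40 bp apart. Those with only tRNA genes or RPM1, 16.0% of the length, held 12.6% and 15.1%.

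Gene fragments held a smaller share of far mitochondrial counts than of counts with nuclear fragments. Their share of the counts made with nuclear fragments was 30.5% in glycerol lactate and 37.9% in galactose. Their share of counts 20 kb or more away within mtDNA was 3.13 and 9.33 percentage points lower (Fisher's exact test within each library, p = 3.14e-10 and 9.29e-27), with 957 far counts in gene fragments in galactose and 2550 in glycerol lactate. These p values treat single counts as independent, though they come from 24 gene fragments, and cover counting error only. Single gene fragments went both ways. The longest, 17290-24261, had a far share of 0.788 and 0.503 times its nuclear share, and the ATP6 fragment 1.20 and 1.03 times. Gene fragments were also longer, with a median of 1178.5 bp against 237.5 bp without a gene. The part of length was not tested.

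The genes of respiratory complexes III and IV, COB, COX1, COX2 and COX3, lay in 13 fragments that held 13.0% of counts over 40 bp apart in glycerol lactate and 12.9% in galactose. COX1 and its introns had 3133 and 2201 such counts in 6 fragments, COB 2691 and 2008 in 5, COX2, for subunit II of the oxidase, 740 and 515 in 1, and COX3, for subunit III, 471 and 329 in 1. Their share of far counts was 0.877 and 0.733 times their share of nuclear counts. The 10 genes within introns or the omega element encode maturases and endonucleases, and AI1 and AI2 also reverse transcriptase, as the study states. All 10 lie in the same COX1, COB and 21S rRNA regions, so they share fragments with their hosts. Their share of far counts was 0.861 and 0.674 times that of nuclear counts. For fragment 12812-17289, it was 0.742 and 0.578, with 728 and 410 counts over 40 bp away. The RefSeq spans of AI1 and 4 other intron genes of COX1 overlap this fragment, which need not hold the intron reading frame of each. SCEI, which encodes the omega endonuclease, stood at 0.975 and 0.660 in a fragment with 764 and 485.

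The ATP synthase genes lay in 3 fragments with 2.29% and 2.58% of counts over 40 bp apart. Fragments of ATP6, ATP8 and OLI1, for F0 subunits 6, 8 and 9, had 496, 168 and 570 counts in glycerol lactate and 358, 157 and 496 in galactose. The genes of the ribosome, 15S_RRNA, 21S_RRNA and VAR1 for a small-subunit protein, lay in 6 fragments with 5.44% and 5.33%. The 15S rRNA fragment had 492 and 231 counts, the 3 of 21S rRNA 1463 and 966, and the 2 of VAR1 980 and 887. The 24 tRNA genes lay in 16 fragments with 12.5% and 14.9% of counts, and their share of far counts was 0.967 and 0.944 times that of nuclear counts. RPM1 was the highest gene in this respect, at 1.22 and 1.48, with 316 and 393 counts in its 2 fragments beside the ends. Of these, 84793-85589 stood at 1.03 and 1.17. The last fragment, 85590-85779, stood at 1.95 and 2.61, on only 45 and 24 far counts and 104 and 36 nuclear counts. For the ATP synthase genes the share of far counts was 1.04 and 0.872 times that of nuclear counts, and for those of the ribosome 0.902 and 0.709 times.

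An expected count was formed for each pair from the product of its fragments' nuclear counts, scaled so that pairs 20 kb or more apart had their observed sum. Of 6942 possible pairs at least 10 kb apart, 20 had at least 10 counts in both libraries, and 8 of these were over 2 times the expected count in both. The highest far count joined 2 split genes. COX1 fragment 17290-24261 and COB fragment 41561-41920, which holds part of BI4, had 98 counts in glycerol lactate and 34 in galactose, 8.11 and 4.59 times the expected count, at 17299 bp apart. The protein of BI4, a COB intron maturase, is related to that of AI4 in COX1. The same COX1 fragment had 57 and 20 counts with COB fragment 36205-40360, which was 1.71 and 0.921 times the expected count. With 41921-43101, also in COB, it had 46 and 17, or 2.55 and 1.54 times the expected count. Of the 3 pairs, only that with 41561-41920 was thus over 2 times the expected count in both libraries.

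Of the other far pairs named for a high ratio, 4 joined fragments without a gene and 1 joined such a fragment with a COX2 fragment. Fragments 30203-31054 and 81429-82549, 33432 bp apart on the circle, had 34 and 32 counts, 15.5 and 45.6 times the expected count. Fragments 54616-55429 and 81429-82549 had 27 and 15 counts (17.6 and 22.1 times), and 31076-32451 and 54616-55429 had 33 and 19 (16.1 and 15.5 times). These fragments thus formed pairs with each other over gaps of 22 kb and more. Fragments 35831-36204 and 65097-65697 had 16 and 14 counts, 13.1 and 33.5 times the expected count. Fragment 34180-34291 and the COX2 fragment 73215-75635 had 15 and 10, or 4.40 and 7.87 times. With 54616-55429 and with 81429-82549, fragment 34180-34291 had 0 counts in both libraries. The pairs named for a high ratio were singled out after their counts were seen. Of 108 fragments with at least 100 nuclear counts in both libraries, 81429-82549, 54616-55429 and 30203-31054 had the highest shares of far counts relative to nuclear counts by the lower of the 2 libraries. Their ratios were 1.90, 2.01 and 1.71 in glycerol lactate and 2.30, 1.85 and 2.24 in galactose, against medians of 1.00 and 1.01. The far counts of these fragments include those of the pairs just named, so the ranking is not separate evidence. Similarity in sequence between these fragments was not tested, and a sequence was placed only when it mapped to 1 position.

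Single pairs were compared between the libraries per 1000000 distant counts. Of 987 distant pairs with a summed count of at least 10, 88 (8.92%) were over 2-fold higher in glycerol lactate and 404 (40.9%) over 2-fold higher in galactose. Scaled to all uniquely mapped counts, 135 and 276 were. With only pairs over 40 bp apart, scaled to their own sum, 128 and 276 were, which is closer to the nuclear scaling that follows. Within nuclear chromosomes, per 1000000 of their own counts over 40 bp and under 45 kb apart, 82% of 1592 pairs were higher in glycerol lactate and 4.02% in galactose. Per 1000000 uniquely mapped counts, however, nuclear counts were lower in glycerol lactate at every distance. They were 0.891 times those of galactose under 1 kb and 0.226 times from 2 to 5 kb. The 82% thus holds for its own scaling, and these pairs were not recounted under the other one. Among the 987 mitochondrial pairs, the direction differed by distance. Of the 487 pairs from 1 to 10 kb apart, 275 were higher in galactose and 15 in glycerol lactate, with a median of 2.33-fold higher in galactose. Of the 234 pairs at least 10 kb apart, 70 were higher in glycerol lactate and 18 in galactose. Mean counts at these distances were 1.91 or more in glycerol lactate and 1.03 or less in galactose. A summed count of 10 was thus reached more readily through glycerol lactate, so this split is not separate support for a difference. Of the 66 pairs at most 40 bp apart, 1 was past 2-fold in each direction. Of the 28 pairs that cross the ends within 10 kb, 17 were higher in galactose and 0 in glycerol lactate, with no replicates behind any of these counts.

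The largest folds rested on low counts. The 15S rRNA fragment 6223-8240 and COB fragment 36205-40360 had 28 counts in glycerol lactate and 2 in galactose, a fold of 7.22 (1.72 to 30.3). The COX1 fragment 17290-24261 and 48454-49105 of VAR1 had 12 and 1, a fold of 6.19 (0.80 to 47.6), as did 4344-4551 with 8261-8663. In the other direction, 941-2099 and the last fragment had 2 counts in glycerol lactate and 18 in galactose, 17.5-fold higher in galactose (4.05 to 75.2). Pairs 31076-32451 with 34528-34939 and 32452-33047 with 35831-36204 both had 1 and 10, 19.4-fold higher in galactose (2.48 to 151). Pairs with higher counts also differed. Fragments 50136-50520 and 50806-51062, 285 bp apart, had 35 and 257 counts, 14.2-fold higher in galactose (10.0 to 20.3). Fragments 52797-53234 and 53641-53831, 406 bp apart, had 75 and 301, 7.78-fold higher (6.04 to 10.0). Over 9164 possible pairs more than 40 bp apart, 3941 were seen in both libraries, 2310 only in glycerol lactate and 712 only in galactose, with a rank correlation of 0.50.

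Adjacent junctions varied by site more than by library. The 79 junctions seen in either library ranged from 0 to 4936 counts in glycerol lactate and from 0 to 3601 in galactose. The highest in glycerol lactate were 65698-65783 with 65784-65904 at 4936, 10779-10864 with 10865-11051 at 4778, and 24274-24872 with 24873-26193 in COX1 at 4614. In galactose the COX1 junction was highest at 3601, followed by 40385-41560 with 41561-41920 in COB at 3256 and the junction of the ATP8 and ATP6 fragments, 27401-28150 with 28151-29845, at 2672. The 3 lowest were the same in both, at 0 or 1 count, namely 72003-72787 with 72788-72822, 56690-56847 with 56848-56863 and 52784-52796 with 52797-53234. Each of them includes a fragment of at most 35 bp. The 20 junctions with a fragment under 50 bp had medians of 733 and 529.5, against 2301 and 1217 for the other 59.

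The 12 junctions whose fragments both overlap protein or rRNA genes had median counts of 2487.5 (131 to 4614, glycerol lactate) and 1314.5 (63 to 3601, galactose). The 50 junctions whose fragments hold no gene had 1622 (1 to 4936) and 739.5 (0 to 2667), and these ranges overlap over almost their whole width. Per 1000000 adjacent counts, 1 of 76 mitochondrial junctions with a summed count of at least 10 was over 2-fold higher in glycerol lactate (1.32%) and 3 were over 2-fold higher in galactose (3.95%). Over 12656 nuclear junctions the shares were 0.324% and 0.316%. The mitochondrial ones were 3698-4060 with 4061-4171, at 821 and 222 counts, and in galactose 71359-72002 with 72003-72787, both of which hold tRNA genes, at 114 and 180, 45177-45435 with 45436-46319 at 478 and 737, and 77705-78919 with 78920-80507, the second of which holds COX3, at 206 and 243. They were named after their values were seen.

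**Figure D5:**
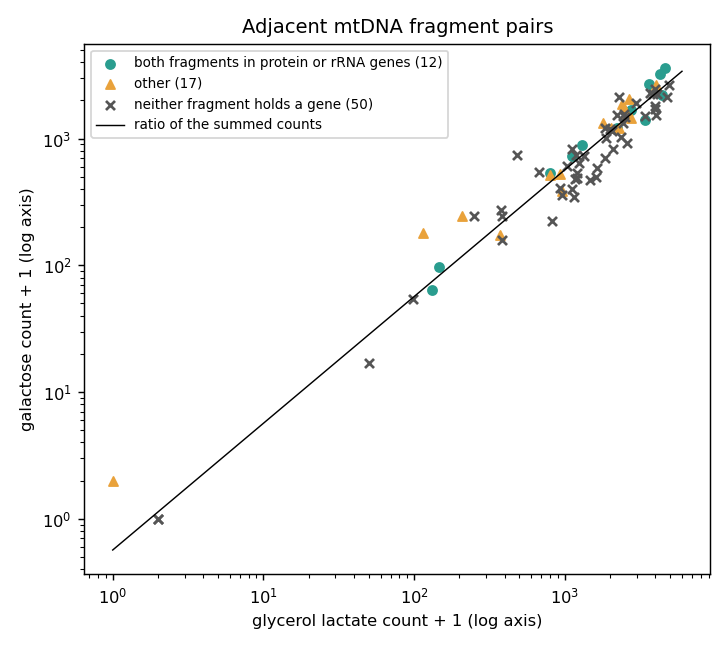
Counts + 1 of the 79 adjacent fragment pairs in glycerol lactate and galactose (log axes), by gene content, with the line of the ratio of the summed counts. Points follow the line from 0 or 1 count to 4936 and 3601, and 4 junctions with a summed count of at least 10 are over 2-fold from it.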

How the data were processed

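GCC was measured in 2 libraries, each combining 2 biological replicates of 1 medium. The authors aligned paired reads without mismatches, assembled MspI fragment pairs with Topography 1.19 and deposited raw counts per pair, for uniquely mapped and for all mapped sequences. Adjacent fragments cannot be told from uncut DNA. Library totals are given in the text and limit precision through counting error. Both orders of a pair held equal counts on every line, and each pair was counted once. Distances are gaps between facing ends, on the circle unless stated. Means are over all possible pairs of fragments with a uniquely mapped count in either library. Shares have 95% Wilson intervals, and means and ratios Poisson intervals. Libraries were compared by Fisher's exact test. Pairs and fragments were named as the highest and lowest of each library or the largest folds. Functions were tested on simulated data. Alternatives covered mapping, distance, fragment length, scaling and cut-offs. The members and lists were chosen with earlier results of these data known. Copy number was not corrected for. Genes came from the RefSeq table of assembly R64. Scripts ran in Python 3.11.15 with scipy 1.17.1, pandas 2.3.3 and numpy 2.4.6.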

Additional observations from a re-analysis of the deposited data

Results flagged for a closer look

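The tables of all mapped sequences, which the comparisons above do not use, held distant counts on 34 mitochondrial fragments of 7 to 35 bp that had no uniquely mapped count. These counts were 140862 in glycerol lactate and 89080 in galactose, or 35.4% and 34.2% of all distant counts in those tables. No control was at hand against which to set them other than the uniquely mapped tables, where the same fragments had 0 counts.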

How the results depend on the processing

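No paired analysis was possible because each medium has 1 combined library, and for the same reason no replicate could be left out. Of the 38 alternatives chosen at the start all were run, and 6 were added after the data were seen. The mitochondrial share kept its direction and its side of the threshold under every alternative. The distant share of glycerol lactate minus galactose turned to -2.25 percentage points with all mapped sequences and to -3.27 with only pairs over 40 bp apart. The difference in the gene share turned to 0.27 with all mapped sequences and 0.075 without fragment numbers that differ by 2 or 3, and was -0.046 over 40 bp apart. Except where fewer pairs or fragments enter by construction, the cause of these shifts was not tested.

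The decay ratio in glycerol lactate and galactose was 0.888 and 1.04 with all mapped sequences, 6.26 and 14.6 by midpoints, which bring long neighbours into the near bin, and 1.21 and 2.08 for the share of pairs seen. It was 1.87 in glycerol lactate with fragments of at least 100 bp. The ratio across the ends was 1.17 and 1.47 with all mapped sequences, 2.02 and 9.42 divided by nuclear counts, 1.00 and 2.89 with fragments of at least 100 bp, 1.20 and 1.94 for the share of pairs seen, 2.48 and 12.3 within 5 kb, 1.39 and 5.35 without the first and last pair, and 1.22 and 3.41 without the first fragment.

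The rank correlation with length was 0.63 and 0.70 without fragment numbers that differ by 2 or 3, 0.28 and 0.40 with fragments of at least 100 bp, 0.63 and 0.69 over 40 bp apart, and 0.39 in galactose with all mapped sequences. That with nuclear counts was 0.36 and 0.29 with all mapped sequences, 0.87 and 0.78 without those numbers, 0.54 and 0.50 with fragments of at least 100 bp, and 0.82 and 0.79 over 40 bp apart.

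Distant pairs over 2-fold higher in glycerol lactate numbered 135 when scaled to all uniquely mapped counts, and pairs higher in glycerol lactate and in galactose numbered 691 and 795 at a summed count of 5, 13 and 194 at 20, and 250 and 751 with all mapped sequences. Junctions higher in glycerol lactate numbered 8 when scaled to all counts and 0 with all mapped sequences. Distant pairs reached 5 counts in 1539 and 967 cases and 2 counts in 2739 cases in galactose, and 3 counts in 6438 and 5589 with all mapped sequences. Counts per pair are low at far distances, so single far pairs carry wide counting intervals.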

Other observations

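Mitochondrial fragments had 2375 uniquely mapped counts with the 2-micron plasmid, a multicopy plasmid of the yeast nucleus, in glycerol lactate and 840 in galactose, over 828 and 506 pairs with at most 19 and 9 counts each. With pUC19 DNA added as an outside control they had 1 count in glycerol lactate and 0 in galactose. With lambda DNA, which was added to galactose only, they had 13 counts over 11 pairs with at most 2 counts each.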
